A study of Mus musculus with 16 samples.

Results

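The nuclear-encoded genes of oxidative phosphorylation (OXPHOS) were followed through 16 RNA-seq libraries of mouse sperm. They were taken by gene symbol alone: the Nduf genes of series a, b, c, s and v with a number, Sdha to Sdhd, the Uqcr genes, Cyc1, the Cox genes numbered from Cox4 to Cox8, and the Atp5 genes. The rule found 84 of the 24062 genes of the table, and no measured value entered it. Complex I accounts for 35 of them, complex II for 4, complex III for 9, complex IV for 18 and complex V for 15. Ndufa4, named for complex I, is counted with complex IV, where it is now placed. The other 3, Cox7a2l, Atp5s and Atp5sl, carry the names of a complex but are not counted as its subunits.

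Complexes I and II feed electrons from NADH and succinate into the respiratory chain. Complex III passes them to cytochrome c, complex IV (cytochrome c oxidase) hands them to oxygen, and complex V (ATP synthase) makes ATP from the proton gradient that complexes I, III and IV build. In sperm the mitochondria are wrapped around the midpiece of the tail. Several subunits of complex IV exist as isoforms of different tissues: Cox6b2, Cox7b2 and Cox8c are known from testis and are set here against the widely expressed Cox6b1, Cox7b and Cox8a. Cox4i2 is known from lung, and Cox6a2, Cox7a1 and Cox8b from heart and skeletal muscle.

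Male mice, 3 weeks old at the start, ate a high-fat diet (HFD, a modified D12492 feed) or a control diet (CD) for 9 weeks, with 8 libraries from each diet. The sources used here do not give strain or genotype. Motile sperm were isolated, 2 ng of DNase-treated RNA was amplified into cDNA, and 250 ng of cDNA entered each library. That each library is a separate male is read from 16 mice and 16 libraries, and p-values measure the spread between these libraries. The question of the design is how the feed given to males bears on the RNA of their sperm.

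The smallest library, HFD 4, held 1882555 gene counts and the largest, CD 2, held 7783981, and OXPHOS genes took 0.578% to 0.858% of them. HFD 4 and HFD 8 stood apart from the other 14 libraries in cell-type markers. The summed CPM (counts scaled to the total gene count of the library) of 38 late spermatid genes, such as the protamines, were 26126 in HFD 4 and 55603 in HFD 8, against 2350 to 13184 elsewhere, and none of the 38 was at 0 in all libraries. In the same libraries the sum of meiotic germ cell genes was 3957 and 3245 CPM, above the 228 to 1144 of the other 14. Epididymal epithelium genes, which mark the duct lining and not sperm, summed to 12707 and 10053 CPM there, below the 29615 to 80805 of the others, where they exceeded the late spermatid sum. The leukocyte sum was 1537 and 1963 CPM there and 2011 to 5503 elsewhere, that of stromal genes 1346 and 1182 against 346 to 1012, and that of striated muscle genes 5.65 to 22.7 in all 16. HFD 4 also had the fewest gene counts. Results that rest on HFD 4 and HFD 8 are therefore given with and without them, and the part of these markers in each result was not tested. In bulk RNA, fewer cells of a type cannot be told apart from less RNA per cell.

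Of the 84 genes, 79 had counts in all 16 libraries and these 79 passed the expression filter of the diet comparison. Cox8b, the muscle isoform, and Ndufs5, an accessory subunit of complex I, were listed at 0 in every library, and Cox4i2, Cox6a2 and Cox7a1 were detected in 14, 10 and 11 libraries. Ndufs5 shares 21.7% of its 50-base stretches with transcripts of another gene, and the annotation used for counting is not named. Its 0 cannot be told apart from reads lost in counting. The summed CPM of all 84 genes averaged 7490 ± 734 for HFD and 7389 ± 860 for CD (SD, n = 8 each). Its lowest and highest values were 5777 in CD 8 and 8584 in CD 2, a 1.49-fold range, while the late spermatid sum spanned 23.7-fold. At 6800 and 7457 CPM, HFD 4 and HFD 8 lay inside the range of the other 14 libraries. By complex, the sums were 1980 ± 186 CPM in HFD and 1956 ± 241 in CD for complex I, 305 ± 43.0 and 310 ± 66.3 for complex II, and 733 ± 89.4 and 719 ± 62.9 for complex III. For complex IV they were 2110 ± 157 CPM with HFD and 1916 ± 201 with CD, and for complex V 2164 ± 309 and 2285 ± 338 (SD, n = 8 for each). Diets overlapped in each of these sums.

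**Figure D1:**
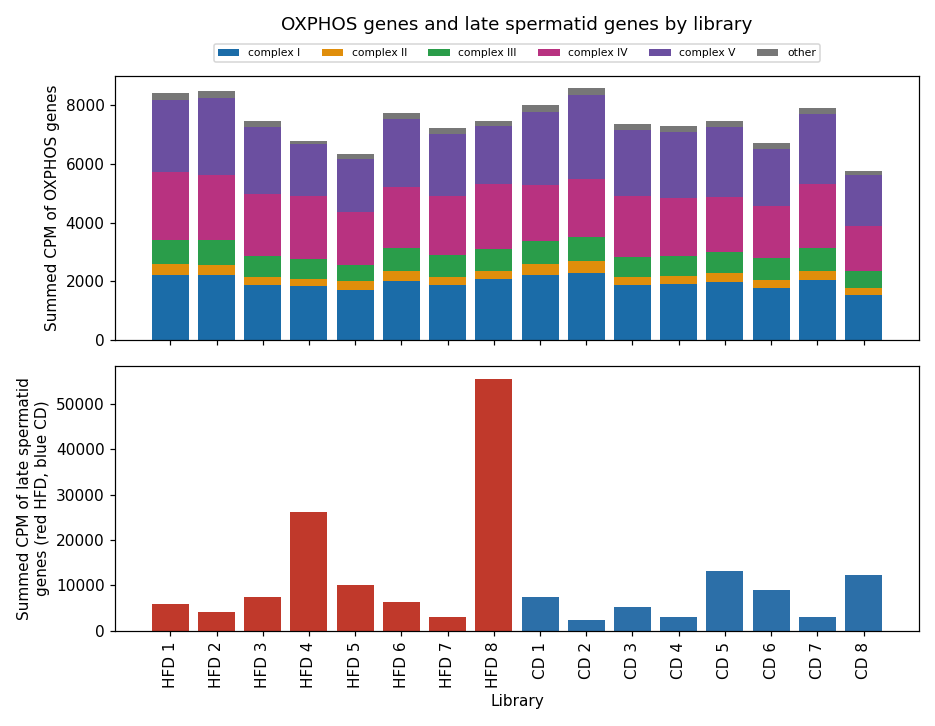
Summed CPM of OXPHOS genes by complex (upper bars) and of 38 late spermatid genes (lower bars) in each of the 16 libraries. The OXPHOS sum stayed between 5777 and 8584 CPM while the late spermatid sum ran from 2350 to 55603 CPM, with HFD 4 and HFD 8 highest.

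Per kilobase of transcript, the most abundant member was Cox6c, a small subunit of complex IV, at 624 CPM per kb over the 16 libraries. Cox4i1, the ubiquitous form of subunit 4, followed at 447 and Cox8a at 418. In complex V the highest was Atp5e, the epsilon subunit of the F1 part, at 340, and Atp5b, its catalytic beta subunit, stood at 320. Ndufa1, an accessory subunit, led complex I at 299.6 CPM per kb, Uqcrh, the hinge protein, led complex III at 285, and Sdha, the flavoprotein of succinate dehydrogenase, led complex II at 57.2. The median was 199.8 CPM per kb in complex IV, 149 in complex V, 83.6 in complex III, 58.6 in complex I and 37.9 in complex II. Within complex I, the 7 nuclear-encoded core subunits had a median of 37.4 CPM per kb and the 27 tested accessory subunits one of 85.2. Without division by transcript length the medians lay closer, at 39.2 and 58.2 CPM. Subunits of one complex thus differed widely in level: complex I alone ran from 10.8 CPM per kb for Ndufb4 to that of Ndufa1. Ndufb4 shares 18.3% of its 50-base stretches with transcripts of other genes, so its level is uncertain.

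Below, CPM of single genes are scaled with the trimmed mean of M-values (TMM), so they are not parts of the sums above. The spread between libraries also differed between members. In the 14 libraries without HFD 4 and HFD 8, the coefficient of variation was lowest for Cox6a1 at 9.73%, for Ndufs3, a core subunit of complex I, at 10.9% and for Ndufa2 at 11.3%, and had a median of 21.7%. It was highest for the germ line isoform Cox7b2 at 57.6%. With all 16 libraries, Cox7b2 reached 145%, while Ndufs3 stood at 11.7% and Cox6a1 at 13.03%.

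**Figure D2:**
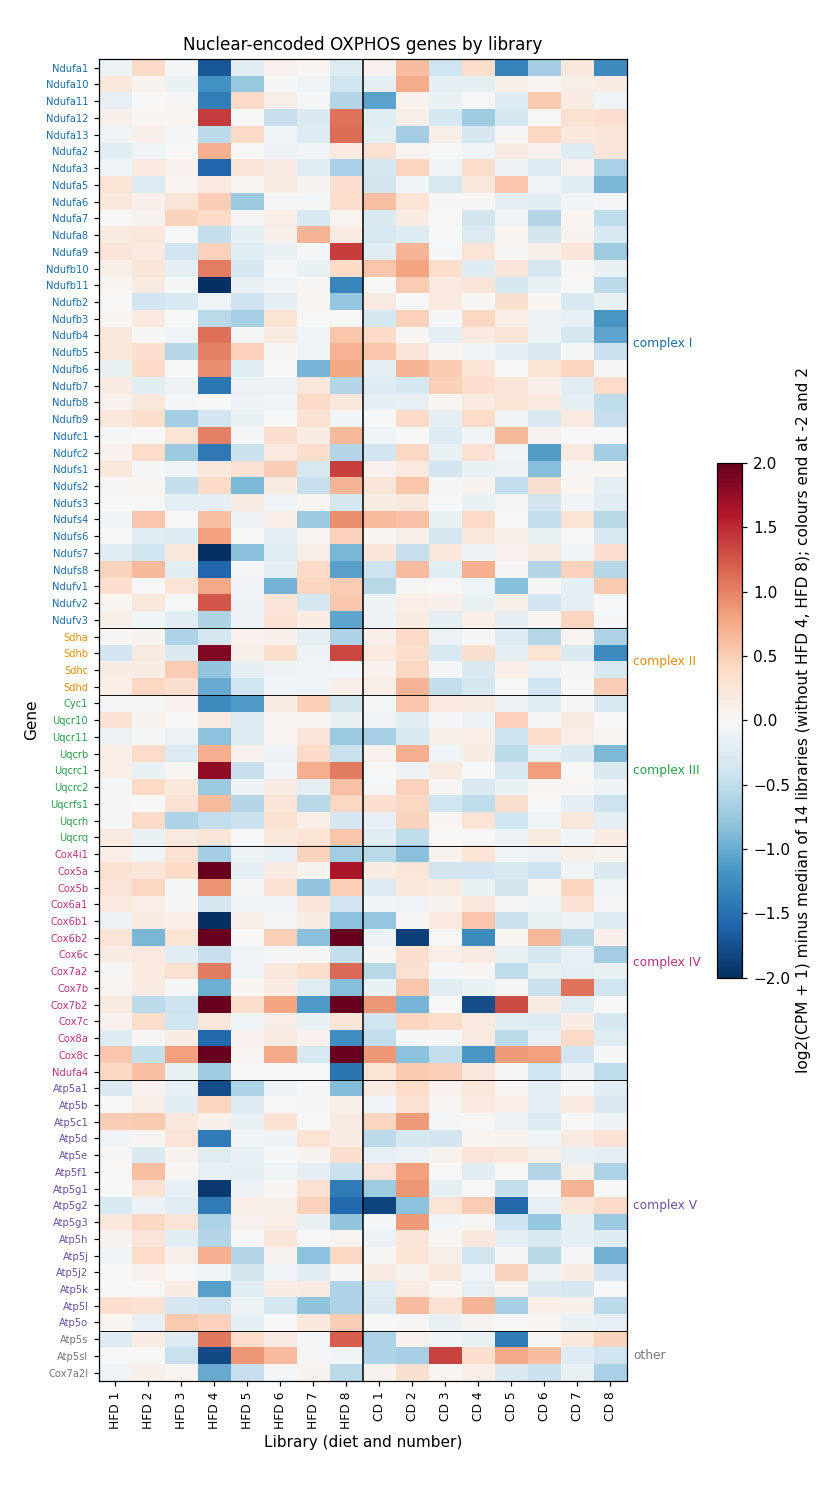
Each of the 79 tested OXPHOS genes (rows, by complex) in each library (columns), as log2(CPM + 1) minus the gene's median over the 14 libraries without HFD 4 and HFD 8, with colours ending at -2 and 2. In HFD 4 and HFD 8, 16 genes lie above and 15 below all other libraries, with Cox6b2, Cox7b2 and Cox8c among those above. These are 20.3% and 19% of the tested OXPHOS genes, beside 21.8% and 22.6% of all genes tested.

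Of the tested members, the 3 germ line isoforms had the widest spread over the 16 libraries. Cox6b2 lies at chr7:4751792-4753094 on the minus strand and Cox6b1 at chr7:30616861-30626151 on the minus strand. Cox7b2 lies at chr5:71442824-71548205 on the minus strand, Cox7b at chrX:106015700-106022450 on the plus strand, Cox8c at chr12:102899316-102900526 on the plus strand and Cox8a at chr19:7215153-7217616 on the minus strand (GRCm38, GENCODE M21). None of these 6 protein-coding genes overlaps another annotated gene. Promoters of the pairs are shown because isoform and partner are separate genes, each read from its own start site, whose levels are set against each other below. Each stretch holds 120 bases that end just before the outermost start in RefSeq or GENCODE, read from RefSeq for GRCm38.p6 on the strand of the gene. That of Cox6b1 ends 37 bases before its RefSeq start and the other 4 end at theirs. The stretches hold no match to the motifs described further on. Cox8c has no entry in the promoter table. The stretches lie at chr7:4753095-4753214, chr7:30626152-30626271, chr5:71548206-71548325, chrX:106015580-106015699 and chr19:7217617-7217736 in the order of the lines.
Cox6b2: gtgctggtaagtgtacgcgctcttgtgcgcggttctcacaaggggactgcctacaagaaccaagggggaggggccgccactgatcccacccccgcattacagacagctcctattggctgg
Cox6b1: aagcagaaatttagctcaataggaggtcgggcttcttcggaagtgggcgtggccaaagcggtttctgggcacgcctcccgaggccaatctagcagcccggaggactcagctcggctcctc
Cox7b2: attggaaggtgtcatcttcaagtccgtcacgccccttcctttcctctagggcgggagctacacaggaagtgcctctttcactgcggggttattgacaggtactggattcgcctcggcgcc
Cox7b: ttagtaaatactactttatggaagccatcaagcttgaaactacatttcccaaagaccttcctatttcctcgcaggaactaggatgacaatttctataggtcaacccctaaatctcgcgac
Cox8a: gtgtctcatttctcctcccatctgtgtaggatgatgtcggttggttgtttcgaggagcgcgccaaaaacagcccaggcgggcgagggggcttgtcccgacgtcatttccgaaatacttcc

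Cox6b2 had a lowest, median and highest value of 13.97, 33.1 and 246 CPM in HFD and of 6.75, 26.4 and 43.6 CPM in CD. HFD 4 was highest with 246 CPM (414 counts), followed by HFD 8 with 147 CPM (422 counts), and the other 6 HFD libraries, at 13.97 to 38.3 CPM, lay within the CD range. Cox7b2 ran from 8.13 through a median of 23.3 to 208 CPM in HFD and from 4.89 through 19.1 to 48.5 CPM in CD. HFD 4 and HFD 8 held 208 and 196 CPM, and the other 6 HFD libraries stayed at 8.13 to 33.6 CPM. Cox8c, with 192 CPM per kb the most abundant of the 3 per length, ran from 29.1 through 64.7 to 422 CPM in HFD and from 17.7 through 35.5 to 75.3 CPM in CD. Its values in HFD 4 and HFD 8 were 318 and 422 CPM, against at most 73.2 CPM in the other 6 HFD libraries. In each of the 3 genes HFD 4 and HFD 8 lay above all other libraries and the remaining libraries of the diets overlapped.

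Their partners ran the other way in the same libraries. Cox6b1 held 22.6 and 78.8 CPM there, below the 81.4 to 205 CPM of the other 14. Cox7b had 59.5 and 65.2 CPM there against 87.0 to 253 elsewhere, and Cox8a had 84.5 and 107 CPM against 176.5 to 331. Per kilobase, the isoform exceeded its partner in HFD 4 and HFD 8 and in 0 of the other 14 libraries. Cox6b2 made up 93.5% of its pair per kilobase in HFD 4 and 71.3% in HFD 8, against 5.94% to 31.4% with a median of 20.8% in the others. Cox7b2 made up 86.6% and 84.7%, against 7.70% to 42.6% with a median of 25.2%. Cox8c made up 81.9% and 82.6%, against 6.89% to 33.7% with a median of 16.95%. As counts, the share of Cox6b2 was 91.6% (exact 95% interval 88.6% to 94.0%) in HFD 4 and 65.1% (61.3% to 68.8%) in HFD 8, which covers counting error only.

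**Figure D3:**
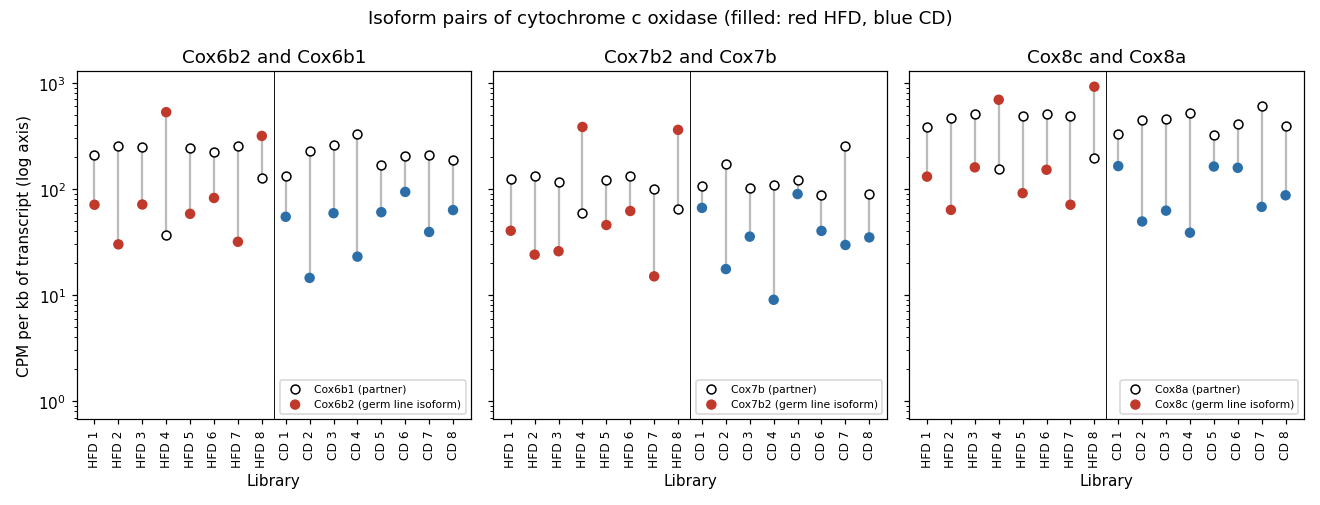
Germ line isoforms (filled points, red for HFD, blue for CD) and their partners (open points) in each library, in CPM per kb of transcript on a log axis. The filled point lies above the open one in HFD 4 and HFD 8 and below it in the other 14 libraries.

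A ratio of isoform to partner within a library does not depend on library scaling, so the mean log2 ratio was compared between diets for 6 isoform pairs. Cox6b2 to Cox6b1 averaged -1.38 ± 2.36 (SD) in HFD and -2.63 ± 1.12 in CD, a difference of 1.26 (exact permutation test over 12870 assignments, two-sided, p = 0.214, Benjamini-Hochberg adjusted p = 0.504 over the 6 pairs). Cox7b2 to Cox7b differed by 1.09 (exact p = 0.252, adjusted p = 0.504) and Cox8c to Cox8a by 1.22 (exact p = 0.187, adjusted p = 0.504). None of the 3 differences exceeded the spread between libraries by this test. Without HFD 4 and HFD 8 they were 0.07, -0.03 and 0.13 (exact permutation test over 3003 assignments, adjusted p = 0.957 for each).

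The isoforms of other tissues were rare. Cox4i2 was at 0 in HFD 4 and HFD 8, where 3 counts would amount to 1.785 and 1.05 CPM, and at 0.387 to 11.3 CPM in the other 14 libraries. It made up at most 3.07% of its pair with Cox4i1 per kilobase. Cox6a2 had 2.38 and 4.18 CPM in these libraries and at most 1.53 CPM elsewhere, and made up 1.89% and 3.37% of its pair with Cox6a1 per kilobase in HFD 4 and HFD 8 and at most 0.825% in the others. Cox7a1 reached 3.14 CPM in HFD 8 and was at or below 2.14 CPM in the other libraries, with 9 counts at most in any library. The log2 ratios of these isoforms to Cox4i1, Cox6a1 and Cox7a2 differed between diets by -0.61, 0.70 and -0.41 (exact permutation test, adjusted p = 0.529, 0.529 and 0.567).

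Across all members, no gene passed the diet comparison. edgeR's quasi-likelihood F-test, two-sided and adjusted over 13149 genes, called 0 of the 79 tested members at an adjusted p under 0.05, and 0% of all genes. The log2 fold changes (HFD minus CD) were positive in 40 members and negative in 39, with a median of 0.0023. Over all genes tested, 6521 were positive and 6628 negative, with a median of -0.0042. At an unadjusted p under 0.05 the test gave 5 members higher in HFD and 0 lower, beside 10.2% of all genes higher and 1.1% lower. DESeq2 called 0 of 82 members and 1 gene in all, with 7 members (8.54%) at an unadjusted p under 0.05, beside 11.1% of 20408 genes. limma-voom called 0, with 3 members (3.8%), beside 3.8% of all genes.

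The 5 members were all subunits of complex IV: the 3 germ line isoforms, Cox5a and Cox7a2. Cox5a, a matrix-side subunit, had a lowest, median and highest value of 68.9, 95.6 and 318 CPM in HFD and of 59.2, 64.2 and 93.5 CPM in CD. HFD 4 with 318 CPM and HFD 8 with 248 CPM were highest, and the other 6 HFD libraries, at 68.9 to 104 CPM, overlapped the CD range. Its log2 fold change was 0.96 ± 0.30 (SE) with an unadjusted p of 0.0052 and an adjusted p of 0.434 in edgeR. Cox7a2, the widely expressed form of subunit 7a, ran from 86.0 to 203 CPM in HFD with a median of 109.9, and from 61.9 to 114 CPM in CD with a median of 83.1. Again HFD 4 and HFD 8 were highest, at 189 and 203 CPM. The log2 fold change of Cox7a2 was 0.59 ± 0.21 (SE), with an unadjusted p of 0.011 and an adjusted p of 0.434 in edgeR. The fitted changes of the isoforms were 1.54 ± 0.58 for Cox6b2, 1.56 ± 0.67 for Cox7b2 and 1.53 ± 0.57 for Cox8c, each with an adjusted p of 0.434 in edgeR, and they were the only members whose fitted change reached 2-fold, a log2 change of 1.

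Without HFD 4 and HFD 8, edgeR called 0 of 80 tested members and 0% of 13448 genes, and 3 members had an unadjusted p under 0.05 against 2.17% of all genes in either direction. Cox5a had a log2 fold change of 0.35 (unadjusted p 0.027), Cox7a2 one of 0.31 (unadjusted p 0.041) and Ndufa8, an accessory subunit of complex I, one of 0.37 (unadjusted p 0.028), each with an adjusted p of 0.9997 in edgeR. Ndufa8 had 49.2 to 89.4 CPM in these 6 HFD libraries and 42.8 to 58.7 CPM in CD, so the diets overlapped. The germ line isoforms no longer stood out, with log2 fold changes of 0.18 for Cox6b2, -0.17 for Cox7b2 and 0.18 for Cox8c. The sign of the difference turned in 28 of the 79 members tested in both fits. Such turns were not counted over all genes, so this cannot be called particular to OXPHOS genes. Over the 80 members, 55 were positive and 25 negative, with a median of 0.05. Over all 13448 genes tested, 6613 were positive and 6835 negative, with a median of -0.0046.

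**Figure D4:**
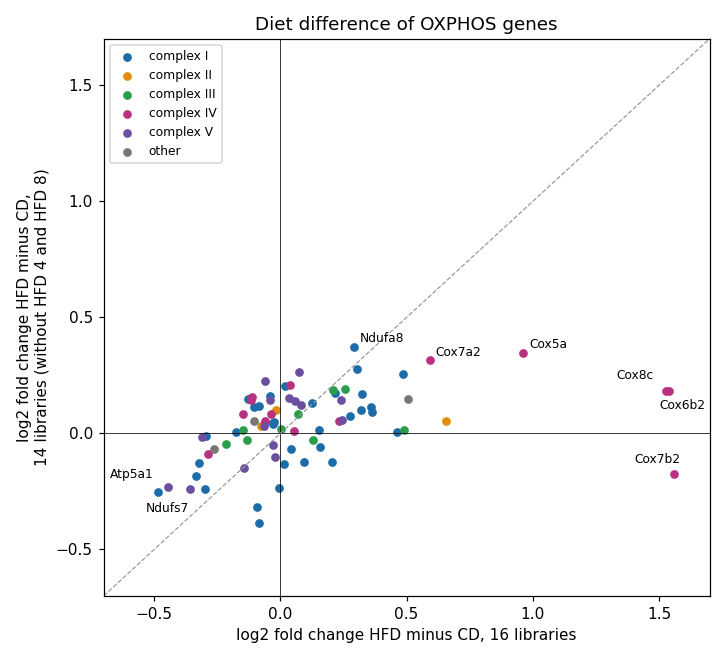
Diet difference (log2 fold change, HFD minus CD) of each of the 79 OXPHOS genes in all 16 libraries (horizontal axis) and without HFD 4 and HFD 8 (vertical axis), coloured by complex, with the dashed line marking equal values. Cox6b2, Cox7b2 and Cox8c lie near 1.5 on the horizontal axis and between -0.17 and 0.18 on the vertical axis.

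HFD 4 and HFD 8 departed from the rest in OXPHOS genes about as often as in all genes. Both libraries lay above the other 14 in 16 members, 20.3% of those tested, and below them in 15, 19%, beside 21.8% and 22.6% of all genes tested. Members of one complex were found on both sides. In complex I, Ndufa12, Ndufb4, Ndufb5, Ndufb6, Ndufs6 and Ndufv2 lay above and Ndufa3, Ndufb7, Ndufb11, Ndufs7, Ndufs8 and Ndufv3 below. Ndufa12, an accessory subunit, held 100.6 and 81.2 CPM against 22.6 to 47.7 CPM elsewhere, whereas Ndufs7, a core subunit that carries an iron-sulfur cluster, held 8.93 and 22.7 CPM against 24.0 to 55.1 CPM. In complex II, Sdhb, the iron-sulfur subunit, held 75.6 and 52.65 CPM against 7.78 to 26.1 CPM, while its partner in the catalytic dimer, Sdha, at 142 and 118 CPM, lay within the 117 to 237 CPM of the rest. In complex III, Uqcrc1, a core protein, held 123 and 73.2 CPM against 25.2 to 63.5 CPM. The other core protein, Uqcrc2, was at 63.1 and 160 CPM, on either side of the 86.8 to 147 CPM of the rest. In complex V, Atp5a1, the alpha subunit of F1, held 111 and 209 CPM against 249 to 496 CPM, while its partner Atp5b held 799 and 643 CPM against 487 to 739 CPM.

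Among complex IV subunits, 6 lay above in these libraries (Cox5a, Cox5b, Cox7a2 and the 3 germ line isoforms) and 5 below (Cox6a1, Cox6b1, Cox7b, Cox8a and Ndufa4), of 14 tested. Cox4i1, at 219 and 216.5 CPM, and Cox6c, at 240.4 and 236 CPM, lay inside the range of the other 14. The 3 genes for the c-ring of ATP synthase, which encode the same mature protein, stood differently there. Atp5g1 held 25.0 and 35.9 CPM, below the 58.6 to 179 CPM of the other 14. Atp5g3 held 105 CPM in HFD 4, inside the 95.7 to 296 CPM of the rest, and 94.1 CPM in HFD 8, just below it, and Atp5g2, at 2.38 and 2.09 CPM, lay inside 1.54 to 11.9 CPM. Atp5g2 shares 38.3% of its 50-base stretches with transcripts of other genes, so its counts are uncertain. In fitted diet differences over 16 libraries, Atp5g1 stood at -0.31 ± 0.31 (SE), Atp5g2 at -0.06 ± 0.45 and Atp5g3 at 0.07 ± 0.24.

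The other complexes gave no member with an unadjusted p under 0.05 in the diet comparison of 16 libraries. In complex I the log2 fold changes of 34 tested members ran from -0.485 for Ndufs7 to 0.48 for Ndufs1, with a median of 0.02. Ndufs7 had an adjusted p of 0.506 and Ndufs1, the largest core subunit, one of 0.460 in edgeR. Ndufa1, the most abundant, averaged 126 ± 39.8 CPM in HFD and 125 ± 58.2 CPM in CD (SD, n = 8), and Ndufb9 121 ± 28.0 and 123 ± 26.7. In complex II, Sdhb had the largest difference at 0.65 ± 0.35 (SE), which was 0.05 without HFD 4 and HFD 8, while Sdha, at -0.06, and the membrane anchor Sdhd, at -0.08, differed by less than their SE of 0.18 and 0.23. In complex III the differences ran from -0.21 for Cyc1, the cytochrome c1 gene, to 0.49 for Uqcrc1, with Uqcrh at -0.13 ± 0.19 and Uqcrc2 at 0.07 ± 0.19. In complex V they ran from -0.45 ± 0.22 for Atp5a1 (edgeR adjusted p = 0.464) to 0.25 for Atp5j, a stalk subunit, with Atp5b at -0.02 ± 0.16. Cox4i1, at 0.04 ± 0.21, Cox6c, at -0.04 ± 0.18, and Cox6a1, at -0.06 ± 0.15, were the complex IV counterparts. Cox7a2l, a factor of supercomplex assembly, stood at -0.11 ± 0.19.

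Libraries differed in late spermatid transcripts within each diet too, so members were tested for a slope on log2 of the late spermatid sum in the 14 libraries without HFD 4 and HFD 8, with diet as a term. A slope of 1 means that a gene doubles when the sum doubles. edgeR called 3 of 80 members with a positive slope, beside 8.97% of 13448 genes, and 11 with a negative one, beside 3.81%. The 3 positive members were the germ line isoforms: Cox7b2 at 0.83 ± 0.19 (SE), Cox6b2 at 0.75 ± 0.17 and Cox8c at 0.69 ± 0.15, with edgeR adjusted p of 0.0059, 0.0057 and 0.0036. CD 2 was lowest in late spermatid genes, with 2350 CPM, and CD 5 highest of the 14, with 13184 CPM. Between them Cox7b2 went from 9.52 to 48.5 CPM, Cox6b2 from 6.75 to 28.1 CPM and Cox8c from 22.6 to 74.6 CPM. CD 8, with the next highest sum of 12289 CPM, held only 18.94 CPM of Cox7b2, 29.4 of Cox6b2 and 39.9 of Cox8c. The medians of the 14 libraries were 19.1, 27.3 and 40.9 CPM. The partners of the isoforms had slopes of -0.27 (Cox7b), -0.20 (Cox6b1) and -0.18 (Cox8a). Their edgeR adjusted p were 0.0964, 0.154 and 0.137, none past the threshold. With protamine Prm2 alone in place of the 38 genes, edgeR called 0 members with a positive slope, beside 4.92% of all genes, and 4 with a negative one, beside 1.55%. Then the late spermatid slope of Cox6b2 had an adjusted p of 0.0605, the late spermatid slope of Cox7b2 one of 0.1195 and the late spermatid slope of Cox8c one of 0.112. In other marker lists, slopes on the late spermatid sum were positive in 16 of 16 tested meiotic germ cell genes (median 0.82), 15 of 15 leukocyte genes (median 0.35) and 12 of 13 stromal genes (median 0.36). Of these, edgeR called 11 meiotic, 1 leukocyte and 2 stromal genes, beside 8.97% of all genes called positive. The part of these lists in the slopes of the isoforms was not tested.

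Of the 11 members with a negative slope, Ndufa1 had the steepest at -0.58 ± 0.10 (SE; edgeR adjusted p = 0.00035). Its values fell from 212 CPM in CD 2 to 54.15 CPM in CD 5, with 57.15 CPM in CD 8, the library with the next highest sum. Ndufs8, a core subunit of complex I, followed at -0.44 ± 0.13 and Ndufc2, an accessory subunit, at -0.41 ± 0.11, with edgeR adjusted p of 0.0311 and 0.0143. The others were Ndufb9 and Ndufb11 of complex I, Uqcrb and Uqcrh of complex III, Cox7c of complex IV, Atp5g1 and Atp5g3 of complex V, and Cox7a2l, with slopes between -0.37 for Atp5g1 and -0.24 for Cox7a2l. Slopes were negative in 62 and positive in 18 of the 80 members, with a median of -0.10, beside -0.014 over all genes tested. Epididymal epithelium genes had a negative slope in 14 and a positive one in 5 of 19 tested, with a median of -0.27. Of the 19, edgeR called 4 negative and 1 positive, beside 3.81% and 8.97% of all genes. By their median these genes moved the same way as the 11 members, and their part was not tested. The negative calls depended on single libraries, in members as in all genes: 1 of the 11, Ndufa1, kept its call without CD 2, 4 without CD 5, 4 without CD 8, 5 without HFD 2, 6 without CD 4 and 7 without CD 6, and limma-voom kept 7. Over all genes the negative share of 3.81% went to 0.764% without CD 2, 1.17% without CD 5, 2.7% without CD 8, 2.13% without HFD 2, 2.89% without CD 4 and 2.8% without CD 6, and was 4.48% in limma-voom. The 3 positive calls held in each of these fits, though not with Prm2 alone.

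**Figure D5:**
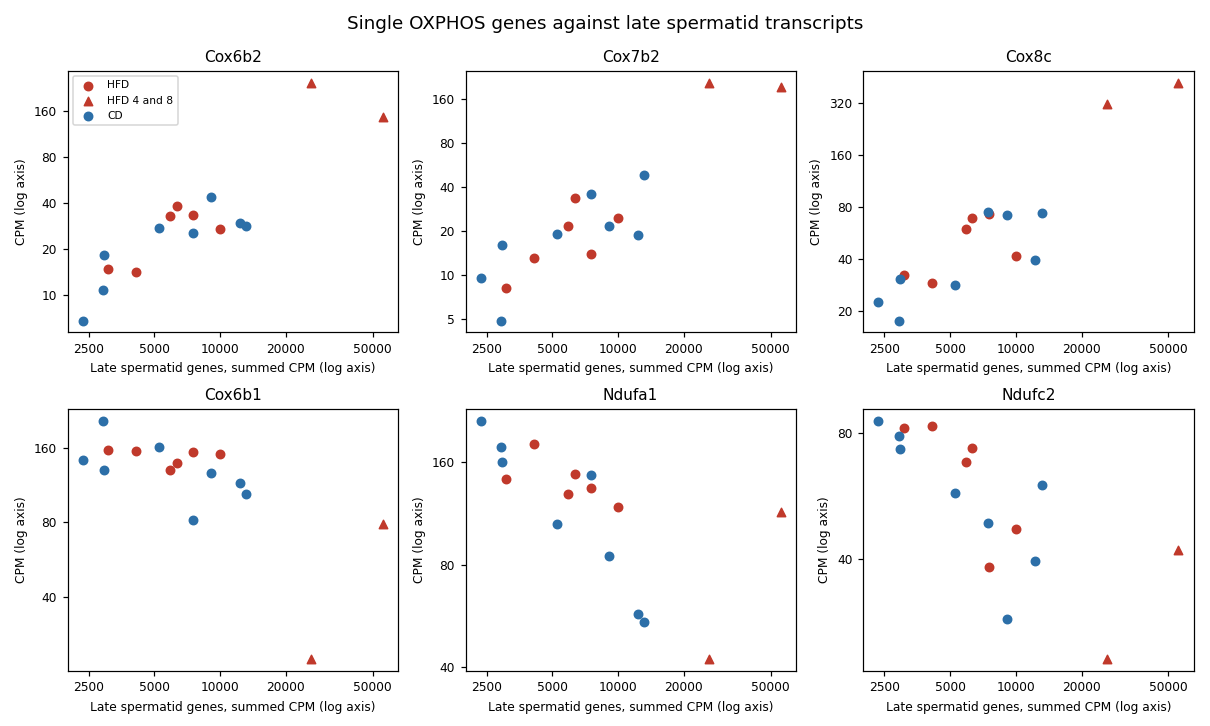
CPM of 6 OXPHOS genes (vertical, log axis) against the summed CPM of 38 late spermatid genes (horizontal, log axis), 1 point per library, with HFD 4 and HFD 8 as triangles. Cox6b2, Cox7b2 and Cox8c rise along the axis, while Ndufa1 and Ndufc2 fall over the 14 other libraries and Cox6b1 is lowest in HFD 4 and HFD 8.

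With all 16 libraries in the slope fit, 7 members were called positive, beside 23.7% of all genes, and 18 negative, beside 20.5%, and the slopes of the isoforms were 1.08 for Cox7b2, 0.94 for Cox6b2 and 0.895 for Cox8c. The slopes of the 3 partners were then past the threshold and negative, at -0.34 for Cox6b1, -0.31 for Cox7b and -0.35 for Cox8a, with edgeR adjusted p of 0.0129, 0.0053 and 0.0011. Of the 16 members that lay above the other 14 libraries in HFD 4 and HFD 8, 11 had a negative slope within those 14. Of these negative slopes, 0 were called. Slopes there were negative in 62 of all 80 members and in 7002 of 13448 genes, so a negative sign was not particular to these members. Cox5a is one of the 11, with a slope of -0.09 ± 0.09 in 14 libraries and of 0.31 ± 0.10 in 16, and Cox7a2 another, with -0.18 ± 0.08 and 0.12 ± 0.08. The 3 germ line isoforms lay above and had positive slopes. Ndufa13 overlaps Tssk6, a gene of the late spermatid list, and without Tssk6 in the sum the calls were 3 positive and 11 negative. With no strand setting named in the sources used here, overlapping genes cannot be told apart. This bears on 6 of the 14 members called in the slope fit, Cox7c, Ndufb9, Ndufb11, Ndufc2, Uqcrb and Uqcrh, and on none of the germ line isoforms. Of the 14, Atp5g1, Cox7a2l, Cox7c, Ndufb9, Ndufb11 and Uqcrb share over 10% of their 50-base stretches with transcripts of other genes, so their counts are uncertain.

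Other genes of the pathway were read from lists of assembly factors, electron and nucleotide carriers, the tricarboxylic acid (TCA) cycle and regulators of mitochondrial biogenesis. edgeR called 0 of 40, 0 of 20, 0 of 19 and 0 of 11 tested genes in the diet comparison, with median log2 fold changes of -0.01, 0.02, 0.07 and -0.09. On late spermatid genes, 2 assembly factors had a called positive slope and 0 a negative one of 41. Among carriers it was 0 and 1 of 20, in the TCA cycle 1 and 1 of 19, and among regulators 1 and 1 of 12. Of all 13448 genes tested, 8.97% were called positive and 3.81% negative. Uqcc2, an assembly factor of complex III, had a slope of 0.55 ± 0.13 (SE; edgeR adjusted p = 0.0062) and 199 and 136 CPM in HFD 4 and HFD 8 against 15.1 to 41.4 CPM elsewhere. Pdha2, the testis form of the pyruvate dehydrogenase alpha subunit, had a slope of 0.76 ± 0.23 (edgeR adjusted p = 0.0346) and 195 and 182 CPM against 4.435 to 40.03 CPM. Tfam, which packages mitochondrial DNA, had a slope of 0.54 ± 0.11 (edgeR adjusted p = 0.0024), with 78.6 CPM in HFD 4, 616 CPM in HFD 8 and 21.7 to 70.2 CPM elsewhere.

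The genes of these lists with the smallest p by diet were likewise highest in HFD 4 or HFD 8. Ndufaf5, an assembly factor of complex I, had 48.2 and 21.6 CPM there against 3.60 to 20.7 CPM, and its log2 fold change was 1.28 with both and 0.77 without them (unadjusted p = 0.0039 and 0.026; edgeR adjusted p = 0.434 and 0.9997). Coq4, of ubiquinone synthesis, had 91.65 and 42.9 CPM against 3.06 to 25.0 CPM, Vdac3, a channel of the outer membrane, 171 and 123 CPM against 18.95 to 48.8 CPM, and Sucla2, of succinyl-CoA ligase, 589.8 and 328 CPM against 38.2 to 134 CPM. Tfb1m, a methyltransferase of mitochondrial ribosomal RNA, had 10.1 and 22.7 CPM against 2.45 to 18.98 CPM. Testis and widely expressed forms of the same protein occur in these lists too. Cyct, the testis cytochrome c, held 58.3 and 52.3 CPM against 0 to 22.35 CPM, and Cycs 28.6 and 49.5 CPM against 54.7 to 132 CPM. Slc25a31, the testis ADP/ATP carrier, held 10.7 and 10.5 CPM against 0.676 to 5.54 CPM, and Slc25a4 28.6 and 79.8 CPM against 106 to 255 CPM. Pdha1 held 25.6 and 33.8 CPM against 79.35 to 181 CPM. No test was made of these pairs, and the lists were compared by counts and medians alone.

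The promoters of OXPHOS genes were searched for motifs of factors that are textbook regulators of nuclear-encoded mitochondrial genes. The search covered 250 bases before to 50 after each RefSeq start in GRCm38.p6, on both strands, for NRF1 (GCGC, any base, TGCGC), for the ETS site CCGGAAG bound by GABP, and for the cAMP response element TGACGTCA. Of 69 members with a promoter entry, 17 (24.6%) held the NRF1 motif, beside 7.22% of 16781 genes of the table. The ETS site was held by 16 members (23.2%), beside 12.8%, and the cAMP response element by 4 (5.8%), beside 2.62%. Among the isoform pairs, Cox6b1 held an ETS match starting 28 bases before its RefSeq start, and Cox8a held one that spans the start and one 32 bases after it. Cox6b2, Cox7b2 and Cox7b held none of the 3 motifs in this window, which says only that these letters are not in it. Cox6a1, with the lowest spread of the tested members in 14 libraries, is shown as an example of a promoter with the NRF1 motif. The match in capitals reads as the motif on the opposite strand and starts 117 bases before its RefSeq start in a stretch that ends 23 bases before that start, chr5:115348982-115349101 on the minus strand. A further NRF1 match and an ETS match lie outside the stretch, 162 and 16 bases before the start.
Cox6a1: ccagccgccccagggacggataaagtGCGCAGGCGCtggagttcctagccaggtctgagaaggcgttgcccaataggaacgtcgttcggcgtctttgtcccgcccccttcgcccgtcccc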

How the data were processed

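The authors deposited 1 table of raw read counts per gene for the 16 sperm libraries, whole numbers with no normalization. Per the submitters' processing notes, STAR, HTSeq 1.0.0, DESeq2 1.0.19 and mm10 were used. The sources used here name no annotation, strand setting or molecular identifiers, so duplicate reads cannot be told from separate molecules. The 5 summary lines of the table were left out, and libraries were grouped by the labelled diet. Counts were tested with edgeR 4.0.16 in R 4.3.3 (filterByExpr by diet, TMM scaling, robust quasi-likelihood F-test, two-sided, Benjamini-Hochberg adjustment over all genes tested, threshold 0.05). The slope fit used log2 of the late spermatid sum with diet as a term. Isoform ratios are log2 of counts plus 0.5, compared by exact permutation over libraries. CPM per kb divides by the length of the GENCODE M21 transcript. DESeq2 1.42.0, limma-voom (limma 3.58.1), other scaling, filters, covariates and sets of libraries were the alternatives. No pair of libraries of the same diet agreed within sampling noise.

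The members and gene lists were chosen with earlier results of these data known. Genes named are the isoform families, the 2 most abundant members of each complex, those with the smallest p by diet, the steepest called slopes and, from other pathway lists, the smallest p and the steepest called slope. The lowest and highest of a range may be named too. Ndufa8, Ndufa12, Ndufs3, the genes with 1 library far from the rest, Sdhb, Uqcrc1, Atp5a1 and the testis and widely expressed forms Cyct, Cycs, Slc25a31, Slc25a4 and Pdha1 were named after their values were seen. On simulated counts for 12903 genes the diet test recovered 5, 36, 48 and 49 of 50 genes changed 2-, 4-, 8- and 16-fold, with 4 false calls. For slopes of 0.25, 0.5, 0.75 and 1 the slope test recovered 2, 15, 31 and 40 of 50 among 13236 genes, with 5 false calls. Genes were simulated independently, with each diet change equal in all libraries of a diet. No libraries departed together in many genes, as HFD 4 and HFD 8 do, so these figures may not hold for these data.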

Additional observations from a re-analysis of the deposited data

Results flagged for a closer look

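The 82 members with counts, 6 summed levels and 6 isoform ratios gave 188 groups of 8 libraries, and in 18 of them 1 library lay far from the other 7, with a gap to its neighbour, over the range of the group, above Dixon's 95% critical value. For normally distributed values the nominal rate is about 1 in 20 such groups. Most groups hold CPM not on a log scale and all share the same libraries, so this rate may not hold here. The gap is taken to the nearest library of the diet, so HFD 4 and HFD 8 can hide each other where both lie far out. Cox6b2, Cox7b2 and Cox8c, in which both were highest, were not flagged. Both lay above the other 14 libraries in 16 and below them in 15 of 79 tested members. HFD 4 was the flagged library in 5 groups. There Atp5d, the delta subunit of F1, was lowest at 40.5 CPM, and Ndufa2, Ndufb4 and Ndufb10, accessory subunits of complex I, and the core subunit Ndufv2 were highest at 126, 21.4, 83.3 and 149 CPM. HFD 8 was highest in 4 groups: Ndufa9 with 100.4 CPM, Ndufa13 with 91 CPM and Ndufs1 with 98.3 CPM in complex I, and the muscle isoform Cox7a1 with 3.14 CPM, which rests on 9 counts. CD 2, the library with the most gene counts, was highest in 3 groups, with 296 CPM of the c-ring gene Atp5g3, 147 CPM of the complex III core gene Uqcrc2 and 109.5 CPM of Ndufa10. In the other 6 groups the highest library stood apart: Atp5f1 in HFD 2 at 110.2 CPM, Ndufc1 in CD 5 at 98.1 CPM, Uqcrc1 in CD 6 at 63.5 CPM, the lung isoform Cox4i2 in CD 3 at 11.3 CPM (40 counts) and in HFD 3 at 9.92 CPM (29 counts), and the muscle isoform Cox6a2 in CD 4 at 1.53 CPM (5 counts).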

How the results depend on the processing

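No setting called a member by diet, and the smallest adjusted p of a member ran from 0.152 in DESeq2 to 0.9997 without HFD 4 and HFD 8 in edgeR. Diet differences turned sign in many fits, and the cause was not tested. Most were near 0, but Cox7b2 and Sucla2 turned from 1.56 and 1.04 without HFD 4 and HFD 8. The diet difference of Atp5b turned to 0.0035 in DESeq2 and to 0.0149 with RLE scaling. limma-voom gave 0.12 for Cox6b1, 0.0223 for Cox8a, 0.0456 for Cox7a2l, 0.31 for Atp5g2, 0.066 for Ndufb9, 0.0627 for Sdha, 0.10 for Sdhd, 0.12 for Cox6c, 0.20 for Ndufc2 and 0.18 for Ndufs8. A stricter filter gave 0.00907 for Cox6a1, 0.0515 for Ndufb9, 0.0135 for Sdha, 0.035 for Cox6c, 0.0771 for Atp5b and 0.0209 for Ndufc2. Without HFD 4 and HFD 8 the values were -0.17 for Cox7b2, 0.16 for Cox6b1, 0.14 for Cox8a, 0.0516 for Cox6a1, 0.0545 for Cox7a2l, 0.23 for Atp5g2, 0.0449 for Ndufb9, 0.0427 for Sdha, 0.0319 for Sdhd, 0.0817 for Cox6c, 0.16 for Ndufc2, 0.15 for Ndufs8 and -0.10 for Sucla2. Leaving out 1 library at a time, diet differences ran from -0.18 to 0.059 for Cox6b1, -0.18 to 0.018 for Cox8a, -0.0504 to 0.12 for Cox4i1, -0.21 to 0.11 for Atp5g2, -0.00461 to 0.27 for Atp5g3, -0.078 to 0.17 for Ndufa1, -0.0919 to 0.0638 for Ndufb9, -0.12 to 0.0192 for Sdha, -0.16 to 0.0388 for Sdhd, -0.0194 to 0.17 for Uqcrc2, -0.0888 to 0.0266 for Cox6c, -0.0708 to 0.028 for Atp5b, -0.15 to 0.0899 for Ndufc2 and -0.27 to 0.0183 for Ndufs8.

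Slope calls were 7 positive and 18 negative with all 16 libraries, 0 and 4 with Prm2 (4.92% and 1.55% of all genes), and 3 and 7 in limma-voom (8.98% and 4.48% of all genes). Leaving out 1 library gave 1 to 12 negative calls. With all 16 libraries the slopes of Cox7a2, Cox5a, Ndufaf5 and Tfb1m turned to 0.12, 0.31, 0.22 and 0.14. The late spermatid slope of Cox4i1 turned to 0.00652 with the stricter filter and 0.00348 in limma-voom. With another covariate in place of the late spermatid sum, the slope of Cox4i1 was 0.0336 on its ratio to the epididymal sum and 0.00934 on Prm2. Leaving out 1 library, slopes ran from -0.13 to 0.0454 for Cox4i1, -0.16 to 0.11 for Sdhd, -0.13 to 0.0232 for Uqcrc2 and -0.24 to 0.15 for Ndufaf5. Diet differences of the log2 ratios Cox7b2/Cox7b, Cox4i2/Cox4i1 and Cox6a2/Cox6a1 turned to -0.0712, 0.59 and -0.21 as medians and to -0.028, 0.17 and -0.36 without HFD 4 and HFD 8.

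Libraries of the diets share title numbers, and whether the number marks a pair is not known. Same-numbered libraries deviated together (correlation over 0.1) in 4 of 8 pairs, with correlations from -0.44 to 0.64. This check cannot decide whether they are paired, because differently numbered libraries were not correlated for comparison. With the number as a replicate block edgeR called 0 members, 2 (2.53%) had an unadjusted p under 0.05 beside 2.39% of all genes, the median diet difference of nuclear OXPHOS genes was 0.00945 and the diet difference of Atp5g2 turned to 0.0939. HFD 4, with the fewest counts, limits the rare isoforms most.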
